A study of Mus musculus with 2 samples.

Results

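The cells described here were the trefoil-positive, non-cycling cells with keratins of primary tumours grown from EO771-HEVM3, a mouse breast cancer line. They were chosen on their counts of unique molecular identifiers (UMIs, each standing for 1 captured transcript), and numbered 1124 of 4555 gated cells (24.7% [23.4 to 26.0]) and of 24044 cells in the series. A gated cell had over 200 detected genes, at most 5% mitochondrial UMIs, and at least 5 UMIs and 500 CPM (UMIs per 1000000 UMIs) of Krt8 and Krt18 together. It also had at most 1 UMI of Ptprc, at most 1 of Pecam1 and Cdh5, under 10 of Col1a1 and Col3a1, and under 5 of Mki67, Top2a and Cenpf. A member then had at least 3 UMIs of Tff1 and Tff2 together. Non-cycling refers only to the limit on Mki67, Top2a and Cenpf, and 703 of the 1124 members had no UMI of these genes. The comparison group, called trefoil-zero, passed the same gate with no UMI of either gene and held 2556 cells. A further 875 gated cells had 1 or 2 trefoil UMIs and are called the low group.

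The study transplanted these cells into C57BL/6J mice and profiled primary tumours and the paired lymph nodes by droplet-based 3′ single-cell RNA sequencing, with 1 library per tissue. EO771-HEVM3 was derived from the parental line by 3 rounds of selection in mice for cells that spread through high endothelial venules, the vessels by which lymphocytes enter lymph nodes. Both groups of cells therefore carried the same line, the same selection and the same host, and no agent or genotype separated them. Each library pooled 6 mice and no label gives the mouse of a cell, so each group was 1 sample. No difference could therefore be set against replicates, and none was tested. Intervals in brackets are exact at 95%, Poisson for CPM and Clopper-Pearson for shares, and cover counting error only.

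Trefoil factors are small secreted peptides held together by disulfide bonds within a cysteine-rich fold, the trefoil domain. They are released with mucins by mucous cells of the stomach (TFF1 and TFF2) and by goblet cells of the intestine (TFF3), and are known for a part in repair of the mucosal surface. In human breast cancer TFF1 is known as a gene that responds to oestrogen. The 3 mouse genes lie side by side on chromosome 17 of GRCm38, all on the minus strand: Tff3 at chr17:31125306-31129646, Tff2 at chr17:31141049-31144282 and Tff1 at chr17:31161395-31165277.

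The coding sequences are shown because Tff1 and Tff2 define the cells and because reads of close paralogues can be assigned wrongly. They come from GENCODE models of GRCm38, are written 5′ to 3′ as transcribed, and carry the cysteine codons in capitals. The Tff1 sequence spans 3 coding exons (chr17:31161577-31165020, introns removed) and has 264 bases with 8 cysteine codons, Tff2 is given from base 85 to base 381 of 390 coding bases over 4 exons (chr17:31141218-31143258) with 14 such codons, and Tff3 has 246 bases over 3 exons (chr17:31125483-31129576) with 7.
Tff1: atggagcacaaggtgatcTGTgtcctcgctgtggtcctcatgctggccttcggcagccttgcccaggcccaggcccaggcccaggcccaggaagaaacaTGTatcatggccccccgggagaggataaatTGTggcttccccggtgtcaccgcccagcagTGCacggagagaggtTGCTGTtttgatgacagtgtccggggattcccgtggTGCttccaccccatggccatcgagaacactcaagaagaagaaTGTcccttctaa
Tff2: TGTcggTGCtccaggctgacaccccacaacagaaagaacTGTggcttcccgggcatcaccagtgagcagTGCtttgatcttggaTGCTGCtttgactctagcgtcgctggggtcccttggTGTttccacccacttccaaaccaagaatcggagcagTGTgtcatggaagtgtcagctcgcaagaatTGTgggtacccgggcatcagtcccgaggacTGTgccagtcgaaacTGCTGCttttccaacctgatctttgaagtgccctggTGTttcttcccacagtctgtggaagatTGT
Tff3: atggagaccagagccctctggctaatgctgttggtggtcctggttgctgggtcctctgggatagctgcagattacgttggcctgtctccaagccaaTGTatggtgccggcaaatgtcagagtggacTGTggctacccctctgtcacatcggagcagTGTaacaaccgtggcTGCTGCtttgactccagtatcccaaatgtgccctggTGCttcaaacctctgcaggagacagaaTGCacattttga
The TGCTGC or TGCTGT pair in the middle of each run is the adjacent cysteine pair of a trefoil domain, and Tff2, which has a pair of domains, holds it in both. The longest run shared exactly by the full transcripts was 11 bases for Tff1 and Tff2, 12 for Tff1 and Tff3 and 14 for Tff2 and Tff3.

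Tff1 stood at 573 CPM [562 to 584] in the members and was found in 631 of 1124 cells. Tff2 stood at 774 CPM [762 to 786] and was found in 1086 cells. Both genes were found in 593 cells, so most of the selection was carried by Tff2. The median member held 10 trefoil UMIs and the highest held 840. Tff1 was the more uneven of the 2, with 77.0% of its UMIs in the 113 members richest in it, against 43.2% for Tff2 in as many cells. Tff3, which the rule did not use, was found in 30 member cells with 62 UMIs and in 1 trefoil-zero cell with 1 UMI. Of the 30 cells, 24 lay among the 229 members with at least 30 trefoil UMIs, and its level was 0.11 CPM, 0.861 CPM and 12.1 CPM in members with 3 to 9, 10 to 29 and at least 30 UMIs. Levels are CPM of 3′ ends and are not scaled by transcript length.

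**Figure D1:**
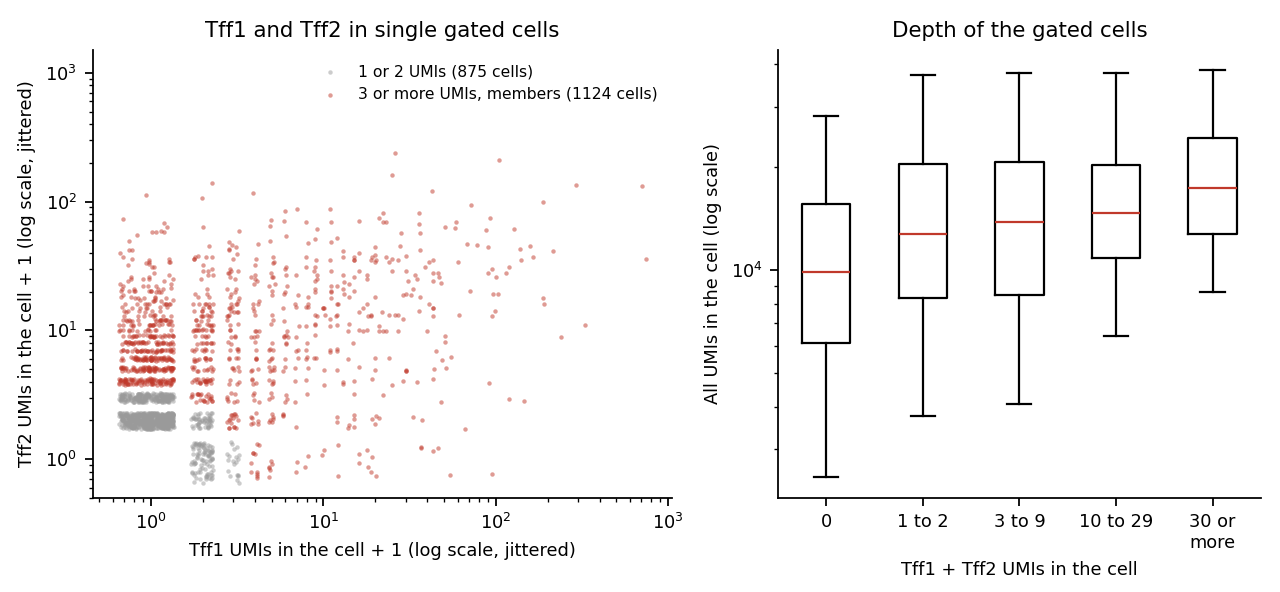
Left, Tff1 against Tff2 UMIs, each plus 1 and slightly jittered on log axes, with each point 1 cell, the 1124 members in red and the 875 cells of the low group in grey. Right, total UMIs per cell on a log axis by trefoil band, with red lines for medians, boxes for quartiles and whiskers for the 5th and 95th percentiles; the median was 9864 in trefoil-zero cells and 17338 in members with at least 30 trefoil UMIs.

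The number of trefoil UMIs depended on how deeply a cell was counted. Members had a median of 14878 UMIs and 3614 genes, against 9864 UMIs and 2747 genes in trefoil-zero cells and 12794 UMIs in the low group. When each gated cell was thinned to 5000 UMIs, 16.7% of the 3952 cells that were deep enough had at least 3 trefoil UMIs, and 603 shallower cells were left out. There was no gap at the threshold: 275 cells had 2 trefoil UMIs, 143 had 3 and 118 had 4, with median depths of 13348, 12913 and 13576.5 UMIs. The share of mitochondrial UMIs was 2.96% in members and 2.72% in trefoil-zero cells (medians). Comparisons are therefore given also in a depth-balanced form, in which trefoil-zero cells were reweighted to the members' spread of depth.

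Free trefoil RNA was gauged in 1202 immune cells of the same library (at least 2 Ptprc UMIs, at most 1 of Krt8 and Krt18; median 2078.5 UMIs). Of these, 3.99% [2.96 to 5.26] had any trefoil UMI and 0.915% [0.458 to 1.63] had at least 3. Thinned to 1000 UMIs, which left out 141 immune and 18 gated cells, the share with any trefoil UMI was 2.02% in the immune cells, 16.4% in all gated cells and 56.1% in members. The gated share lay above the immune share at equal depth.

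The label of the cells was checked on genes outside the rule. Krt7 stood at 623 CPM in members and 672 CPM in trefoil-zero cells, Krt19 at 462 CPM and 367 CPM, and Epcam, an epithelial adhesion molecule, at 141 CPM and 97.3 CPM. Cdh1, the E-cadherin of epithelial junctions, was close to absent in both, with 5 UMIs in members and 11 UMIs in trefoil-zero cells. Krt8 and Krt18, which the gate used, were level at 2106 CPM against 2103 CPM and at 1867 CPM against 1801 CPM. Epcam was found in 67.1% of members and 46.4% of trefoil-zero cells. The mesenchymal genes Vim and Fn1 were found in 99.7% and 96.3% of members, and in 97.4% and 89.3% of trefoil-zero cells. The cells thus held epithelial keratins and, in part, Epcam, with almost no E-cadherin RNA and with mesenchymal RNA beside them. Of the 47 barcodes found in both libraries, 7 were members. A doublet caller marked 51 members (4.54%) and 107 trefoil-zero cells (4.19%), which were kept in the main comparison.

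Of 9118 genes with at least 200 UMIs over both groups, 112 (1.23%) were more than 2-fold higher in the members and 31 (0.34%) more than 2-fold lower, with a median log2 ratio of -0.01. These shares are the background for the counts below. Log2 ratios are of summed CPM, members over trefoil-zero cells. Genes named by rule had to pass 2-fold in the sums and 1.5-fold when depth-balanced, and be found in at least 10% of cells of the higher group after thinning to 5000 UMIs. The limits were met by 36 higher genes, of which the 15 with the largest ratio are named, and by 9 lower genes.

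**Figure D2:**
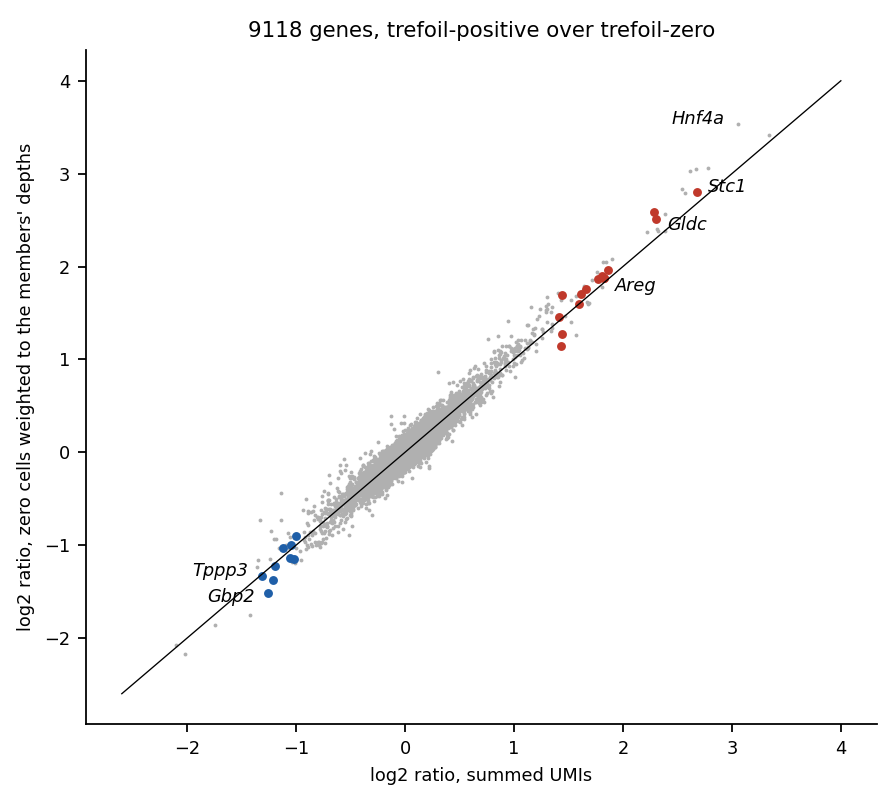
Log2 ratio of members over trefoil-zero cells for 9118 genes, from summed UMIs on the horizontal axis and with trefoil-zero cells reweighted to the members' depth on the vertical axis, with named higher genes in red, named lower genes in blue and a line where both are equal. Stc1 lies at 2.68 and 2.81, and Gbp2 at -1.26 and -1.51.

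Of the 15 named higher genes Stc1 had the largest ratio. This gene encodes stanniocalcin, a glycoprotein hormone of calcium and phosphate balance, and stood at 27.5 CPM [25.2 to 29.9] in members and 4.28 CPM [3.58 to 5.08] in trefoil-zero cells, a log2 ratio of 2.68 (2.81 when depth-balanced). It was found in 235 members and 58 trefoil-zero cells. Areg, amphiregulin, a ligand of the epidermal growth factor receptor, was 3.54-fold higher, at 79.9 CPM against 22.6 CPM. A second ligand of that receptor, Btc (betacellulin), stood at 18.7 CPM against 2.71 CPM, and was singled out after its values were seen. The 2 ligands were both higher in the members, Btc from a lower level.

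Alb, serum albumin, stood at 161 CPM [156 to 167] in members and 52.6 CPM in trefoil-zero cells. Rbp4, the retinol carrier of plasma, stood at 125 CPM against 39.4 CPM, and Apoe, the apolipoprotein of lipid transport, at 151 CPM against 44.2 CPM. Apoe is also a macrophage gene and was concentrated, with 29.4% of the members' UMIs in 10 cells. Trf, transferrin, of the normal mammary list, stood at 113 CPM against 52.7 CPM. Afp, alpha-fetoprotein, which is made by fetal liver, had a log2 ratio of 0.22. Igfbp3, which binds insulin-like growth factors, at 195 CPM against 85.7 CPM, and Spp1, osteopontin, at 86.2 CPM against 33.9 CPM, were likewise higher but were picked after their values were seen.

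Of the remaining named higher genes, Ppbp, a platelet chemokine that attracts neutrophils, stood at 43.5 CPM against 12.3 CPM. Pdcd1lg2, which encodes PD-L2, a ligand of the T cell inhibitory receptor PD-1, stood at 49.3 CPM against 16.3 CPM. Sprr1a, a cornified envelope protein of squamous cells, was by far the most abundant named gene, at 634 CPM [623 to 646] against 235 CPM [230 to 241]. Its log2 ratio was 1.43 in the sums and lower, at 1.15, when depth-balanced. Gldc, of the glycine cleavage system, stood at 22.5 CPM against 4.54 CPM, Pgap1, which acts on GPI anchors, at 28.0 CPM against 7.68 CPM, and Rap1gap, which switches off the GTPase Rap1, at 22.8 CPM against 6.51 CPM. Oaf, Clec2g, Gpsm3 and 1500009L16Rik completed the 15, with log2 ratios of 2.28, 1.44, 1.41 and 1.44.

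Genes of stomach and gut epithelium gave the largest single ratio of a fixed list. Hnf4a, a nuclear receptor that specifies liver and gut epithelium, stood at 15.1 CPM [13.4 to 16.9] in members and 1.80 CPM [1.36 to 2.34] in trefoil-zero cells. That is 8.31-fold, or 3.06 [2.65 to 3.51] on the log2 scale. It was found in 172 of 1124 members (15.3%) and in 39 of 2556 trefoil-zero cells (1.53%), and in 7.28% and 0.939% after thinning to 5000 UMIs. In the stomach and gut list, 1 of 6 genes compared was past 2-fold higher, 5 lay above 0, and the median log2 ratio was 0.59. Cdh17, an intestinal cadherin outside the list and picked after its values were seen, stood at 10.4 CPM against 1.01 CPM, and Krt20, a keratin of gastric and intestinal surface cells, at 140 CPM against 78.5 CPM. The forkhead factors Foxa3 and Foxq1 stood at 42.9 CPM against 22.2 CPM and 302 CPM against 170 CPM, and Onecut2, a homeodomain factor of liver and gut, at 146 CPM against 80.2 CPM, all under 2-fold. Among 11 epithelial transcription factors, 1 was past 2-fold higher (Runx1, log2 ratio 1.29) and the median was 0.36.

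Mucosal secretory genes other than the trefoil factors were not higher as a list. Of 6 compared, 1 was past 2-fold (Cxcl15, an epithelial chemokine, log2 ratio 1.30), 4 lay below 0 and the median was -0.06. Clu, clusterin, a secreted chaperone, stood at 573 CPM against 315 CPM. Hormone and luminal genes had 1 of 8 past 2-fold, which was Areg, and a median of -0.16. Esr1, the oestrogen receptor, had a log2 ratio of -0.50, with 16.9 CPM in trefoil-zero cells. The squamous list had 1 of 7 genes past 2-fold, which was Sprr1a, and a median of -0.24. Junction genes had 1 of 17 past 2-fold, which was Cldn6, a claudin of embryonic epithelium (9.48 CPM against 1.54 CPM), with a median of 0.04. Each of these lists thus owed its count to a single gene.

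**Figure D3:**
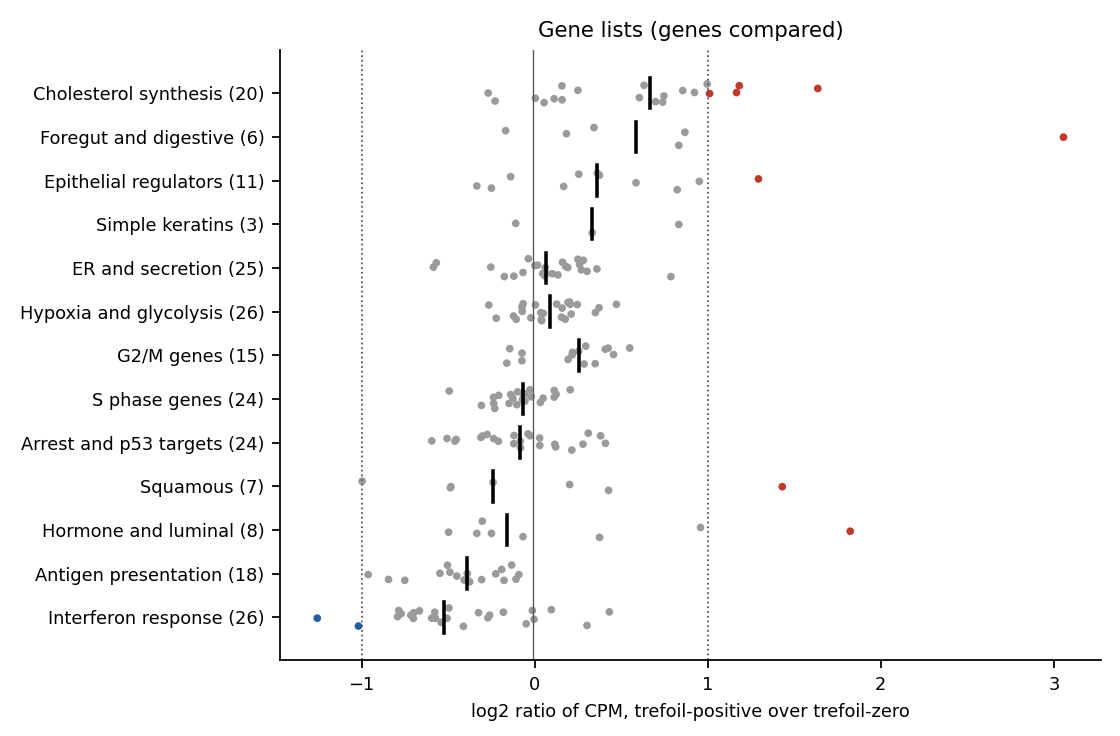
Log2 ratios of members over trefoil-zero cells for the genes of 13 lists, with each dot 1 gene (red more than 2-fold higher, blue more than 2-fold lower, scattered vertically to separate them), black bars for list medians and dotted lines at 2-fold. The cholesterol list centres on 0.67 and the interferon list on -0.52.

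The genes of cholesterol and fatty acid synthesis were higher as a group. Of 20 compared, 4 were more than 2-fold higher, none more than 2-fold lower and 18 lay above 0, with a median of 0.67 against -0.01 for all genes. Over the alternatives 3 to 8 were past 2-fold higher. Insig1, which holds back sterol regulatory factors when sterols are plentiful, stood at 9.37 CPM against 3.01 CPM. Sqle, squalene epoxidase, stood at 56.3 CPM against 25.1 CPM, and Cyp51, a sterol demethylase, at 39.6 CPM against 19.6 CPM. Hmgcs1, an enzyme at the head of the pathway, lay at a log2 ratio of 0.74. Msmo1, a sterol oxidase, stood at 66.3 CPM against 32.8 CPM, was outside the list and was picked after its values were seen. The 2 genes below 0 were Scd1, a fatty acid desaturase (-0.23), and Srebf1, the regulator of fatty acid synthesis (-0.27). Fasn, fatty acid synthase, was near them at 58.8 CPM against 52.6 CPM. Other fatty acid genes differed in direction. After thinning, Elovl6, a fatty acid elongase, was found in 7.61% of members and 3.92% of trefoil-zero cells. Acly was found in 28.8% and 24.0%, and Scd2, another desaturase, in 71.7% and 72.9%. A split between sterol and fatty acid genes was not tested. Abca1, which exports cholesterol from cells, was among the named lower genes, at 13.3 CPM against 26.6 CPM (log2 ratio -0.90 when depth-balanced).

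Interferon-stimulated genes were lower as a group. Of 26 compared, 2 were more than 2-fold lower, none higher, and 23 lay below 0, with a median of -0.52. Gbp2, a guanylate-binding protein of cell-autonomous defence, stood at 76.7 CPM [72.9 to 80.7] in members and 183 CPM [178 to 188] in trefoil-zero cells, 2.39-fold lower. Irgm2, an immunity-related GTPase, stood at 30.0 CPM against 60.8 CPM. Iigp1, another immunity-related GTPase, had a log2 ratio of -0.79. The 3 genes above 0 were Oasl1 (0.43), Cxcl10 (0.30) and Gbp3 (0.10), so the list did not move as a block.

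Genes that present antigen lay below 0 in 18 of 18 cases, none past 2-fold, with a median of -0.39. Over the alternatives 0 to 3 of them were past 2-fold lower, and 1 to 10 of the interferon genes. B2m, the light chain of MHC class I, stood at 1365 CPM against 1558 CPM. Cd74, the invariant chain of MHC class II, stood at 546 CPM against 767 CPM, and H2-Aa, a class II chain, at 35.9 CPM against 64.4 CPM. The class II genes had the larger differences of those named.

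Markers of other cell types moved with these groups in part. The 7 neutrophil markers summed to 15.8 CPM in members and 44.3 CPM in trefoil-zero cells, none at 0. The 14 macrophage, monocyte and dendritic markers summed to 223 CPM and 149 CPM, and to 71.7 CPM and 105 CPM without Apoe, with 2 at 0 in members. The 13 T and NK cell markers summed to 265 CPM and 188 CPM, of which Trbc1 was the main part (33.5 CPM and 19.7 CPM without it), and the 7 B cell markers to 0.563 CPM and 0.915 CPM, with 4 at 0 in members. Fibroblast markers summed to 1092 CPM and 864 CPM. Dcn, found in 98.8% of members and 92.5% of trefoil-zero cells, was the main part, and without it the sums were 12.6 CPM and 13.6 CPM. Endothelial markers summed to 61.6 CPM and 58.4 CPM (6.86 CPM and 6.96 CPM without Esam), and haemoglobins to 162 CPM and 187 CPM. The neutrophil sum rested on few cells, since 74.7% of the members' S100a8 UMIs and 81.7% of their S100a9 UMIs lay in 10 cells, and S100a8 was found in 2.76% of members and 2.46% of trefoil-zero cells. The myeloid sum without Apoe was lower in the members along with the interferon and MHC class II genes, and its part in those differences was not tested.

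The other named lower genes did not share a list. Tppp3, which promotes tubulin polymerisation, stood at 50.7 CPM against 126 CPM, 2.49-fold lower, and Serpinb11, an intracellular serpin, at 74.8 CPM against 155 CPM. Myh14, a non-muscle myosin heavy chain, stood at 16.7 CPM against 38.8 CPM, Cdon, a co-receptor for hedgehog ligands, at 12.4 CPM against 28.5 CPM, Itga7, a laminin-binding integrin chain, at 14.0 CPM against 30.4 CPM, and Mpzl2, an adhesion protein of epithelia, at 19.3 CPM against 40.1 CPM. Acta2, smooth muscle actin, had the lowest log2 ratio of the fixed lists at -2.10, but 76.3% of its UMIs in members lay in 10 cells.

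Other fixed lists lay closer to the median of all genes. Cell cycle inhibitors and p53 targets had a median of -0.08 with none of 24 past 2-fold, and their most abundant member, Cdkn1a, which encodes the inhibitor p21, stood at 483 CPM against 525 CPM. DNA replication genes had a median of -0.07 with none of 24 past 2-fold, and Pcna, the replication clamp, stood at 135 CPM against 142 CPM. Mitotic genes other than those in the gate had a median of 0.25 with none of 15 past 2-fold, and Ube2c, a mitotic ubiquitin-conjugating enzyme, stood at 48.7 CPM against 33.2 CPM. The members thus resembled trefoil-zero cells in arrest and replication genes, with the mitotic genes slightly higher.

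Hypoxia and glycolysis genes had a median of 0.09 with none of 26 past 2-fold (Gapdh 2976 CPM against 2581 CPM), and the unfolded protein response 0.07 with none of 25 (Hspa5, the chaperone BiP, 747 CPM against 660 CPM). Mesenchymal genes had a median of 0.14, with Acta2 the single gene of 11 past 2-fold, and Vim, vimentin, stood at 1308 CPM against 1191 CPM. Genes of BMP and TGF-β signalling had a median of 0.09 with none of 10 past 2-fold, and stratified keratins had a median of -0.15 with none of 4 past 2-fold. Krt14, a basal keratin, was the only one of these 4 above 0, at 326 CPM against 270 CPM. Heat shock and immediate early genes had 1 of 24 lower (Hspa1b, an inducible chaperone, 3.43 CPM against 7.58 CPM, with 76.1% of the members' UMIs in 10 cells) and a median of -0.09, which changed sign when depth-balanced (0.037). Of 20 ligands read by lymphocytes and neutrophils, 3 were higher (Pdcd1lg2, the growth factor Csf2 at 10.7 CPM against 5.07 CPM, and the neutrophil chemokine Cxcl5 at 20.6 CPM against 10.1 CPM), 1 was lower (H60c, a ligand of the activating receptor NKG2D, -2.02) and the median was -0.10. Of 20 xenobiotic and antioxidant genes, 1 was higher (Aldh3a1, an aldehyde dehydrogenase, 1.57) and 1 lower (Cyp1a1, a target of the aryl hydrocarbon receptor, 18.3 CPM against 49.1 CPM). Wnt5a, a Wnt ligand, had a ratio of 1.42 and was the only one of 12 Notch, Wnt and Hippo genes past 2-fold.

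The study follows a lipoxygenase and semaphorin axis. The members did not stand apart on it: Sema3c, a secreted semaphorin, stood at 113 CPM against 112 CPM, its receptor chain Nrp2 at 83.4 CPM against 86.1 CPM and Plxna1 at 24.1 CPM against 23.9 CPM. The median over the 8 genes compared was -0.02. Alox12, a lipoxygenase, had no UMI in members and 2 UMIs in trefoil-zero cells, too few to compare. Adar, which edits double-stranded RNA and is itself interferon-stimulated, stood at 13.8 CPM against 18.3 CPM.

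Levels of the named genes are described over bands of the trefoil UMIs that also chose the members. Cells were set in 5 bands of 0, 1 to 2, 3 to 9, 10 to 29 and at least 30 trefoil UMIs. Over all 5, 13 of 15 named higher genes were ordered upwards and 7 of 9 named lower genes downwards, in the order the choice of genes already favours between the first band and the members. Of all 9118 genes compared, 6.26% were ordered upwards and 5.06% downwards. Those genes were not chosen by their ratio, so these shares are not a like background for the named genes. Stc1 stood at 4.28, 6.12, 13.5, 28.8 and 53.5 CPM in turn, and Areg at 22.6, 25.1, 48.9, 82.0 and 138 CPM. Hnf4a stood at 1.80, 2.41, 5.83, 15.3 and 32.9 CPM, and Serpinb11 at 155, 135, 97.8, 63.2 and 44.1 CPM. The interval of the low group lay above that of trefoil-zero cells for 10 of the 15 named higher genes, against 12.3% of all genes, and below it for 5 of the 9 named lower genes, against 4.96% of all genes. Sprr1a stood at 235 CPM in trefoil-zero cells and 405 CPM in the low group, and Tppp3 at 126 CPM and 71.7 CPM, while the intervals overlapped for Stc1, Areg and Hnf4a. Gbp2 was at 183, 127, 107, 48.4 and 53.5 CPM, and so broke the order in the last band, and Alb was at 52.6, 61.2, 110, 210 and 201 CPM. Krt18 ranged from 1699 to 1988 CPM over the bands and Krt8 from 1898 to 2238 CPM. Bands with more trefoil UMIs were also more deeply counted, from a median of 9864 to 17338 UMIs.

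**Figure D4:**
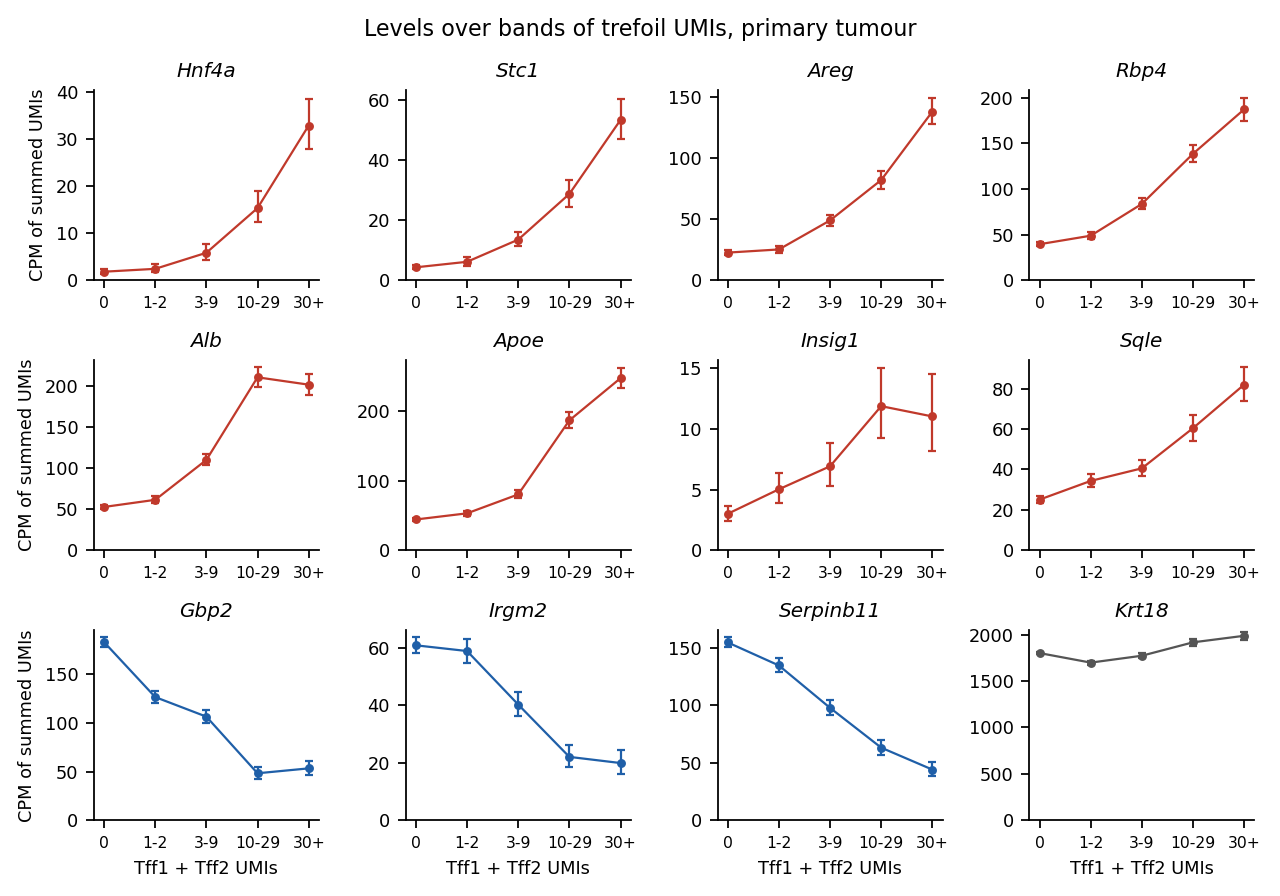
CPM of 12 genes over 5 bands of trefoil UMIs per cell, with exact 95% Poisson intervals, in red for genes higher, in blue for genes lower and in grey for genes within 1.5-fold. Hnf4a climbs from 1.80 to 32.9 CPM, while Krt18 stays between 1699 and 1988 CPM.

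Of 31 gene lists with genes compared, 6 had medians ordered upwards and 6 downwards from the low group over the 3 member bands. The median log2 ratio of the cholesterol list over trefoil-zero cells was 0.22 in the low group and 0.37, 0.74 and 0.95 in the 3 member bands, and the number past 2-fold higher was 0, 1, 6 and 9 of 20. Of all genes, 0.0329%, 0.603%, 1.62% and 2.47% were past 2-fold higher in the same 4 groups. The interferon list stood at -0.02, -0.22, -0.69 and -0.93, with 0, 0, 6 and 11 of 26 past 2-fold lower, against 0.0548%, 0.208%, 0.932% and 1.84% of all genes. Antigen presentation stood at -0.03, -0.24, -0.49 and -0.56. The others ordered upwards were foregut genes (0.17, 0.53, 0.63 and 0.68), simple keratins (0.03, 0.19, 0.32 and 0.59), epithelial regulators (-0.09, 0.30, 0.32 and 0.45), mesenchymal genes and hypoxia and glycolysis genes. The others ordered downwards, squamous, lipoxygenase and semaphorin, prostaglandin and unfolded protein response genes, lay between 0.18 and -0.25 in every band. All bands were set against the same trefoil-zero cells, so these values share their denominator.

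Promoters of 3 genes from these lists are shown because each holds a known motif of its pathway. The window is the 250 bases before the start in the RefSeq table for GRCm38.p6, all on the plus strand, with the match in capitals. A sterol response match was TCACNCCA and an interferon-stimulated response match GAAANNGAAA, each searched on both strands.
Hmgcs1 (chr13:119690101-119690350): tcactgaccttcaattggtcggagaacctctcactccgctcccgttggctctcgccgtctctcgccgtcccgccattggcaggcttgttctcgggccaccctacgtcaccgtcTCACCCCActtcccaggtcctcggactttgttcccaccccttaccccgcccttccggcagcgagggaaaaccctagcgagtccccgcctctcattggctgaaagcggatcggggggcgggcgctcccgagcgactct
Gbp2 (chr3:142620413-142620662): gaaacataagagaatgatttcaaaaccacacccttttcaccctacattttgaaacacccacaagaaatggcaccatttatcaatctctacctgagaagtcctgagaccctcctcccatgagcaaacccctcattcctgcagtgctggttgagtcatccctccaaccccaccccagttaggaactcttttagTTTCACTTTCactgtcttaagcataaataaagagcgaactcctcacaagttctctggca
Irgm2 (chr11:58214727-58214976): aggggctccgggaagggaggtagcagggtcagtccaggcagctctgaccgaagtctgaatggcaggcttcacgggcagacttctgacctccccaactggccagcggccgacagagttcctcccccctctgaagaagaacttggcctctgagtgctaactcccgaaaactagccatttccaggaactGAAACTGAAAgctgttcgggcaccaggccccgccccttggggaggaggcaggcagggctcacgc
The matches begin 137, 59 and 64 bases before the start, and that of Gbp2 reads on the opposite strand. GAAANNGAAA was found in 13 of 21 interferon genes with a promoter in the table (61.9%) against 2.98% of 32851 promoters, and also in Gbp3, whose log2 ratio was 0.10. It was in 2 of 6 named lower and 0 of 14 named higher genes with a promoter. TCACNCCA was found in 2 of 12 cholesterol genes (Hmgcs1 and Srebf2) and in 3.67% of all promoters, and in 1 of 14 named higher genes, Apoe. A match describes letters in the window and no binding was measured.

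Of the genes near the trefoil genes on chromosome 17 with enough UMIs to compare, none was past 2-fold. Log2 ratios were -0.28 for Slc37a1, 0.02 for Wdr4, -0.04 for Ndufv3, 0.17 for U2af1 -0.24 for Pknox1 and -0.54 for Abcg1, a sterol transporter. Ubash3a, near the trefoil genes but under the limit, had 8 UMIs in members and 2 in trefoil-zero cells (log2 ratio 2.41 [0.32 to 5.92]), too few to compare. The medians of whole chromosomes ranged from -0.08 to 0.04.

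Members overlapped unequally with cells marked by other genes of this tumour. At least 3 UMIs of Sprr1a and Cyp1a1 were found in 622 members, 55.3% [52.4 to 58.3], against 21.2% [19.7 to 22.9] of trefoil-zero cells, and in 34.8% and 13.0% after thinning. The difference was that of Sprr1a, a gene already named as higher, since Cyp1a1 was found in 84 of 1124 members (7.47%) and 179 of 2556 trefoil-zero cells and was lower in CPM. At least 3 UMIs of Slurp1 and Mt4 were found in 14.1% [12.2 to 16.3] of members and 17.8% [16.4 to 19.4] of trefoil-zero cells, and in 4.94% and 8.53% after thinning.

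Members with at least 10 trefoil UMIs differed in which gene led. Of 566 such cells, 84 (14.8%) had at least 75% of their trefoil UMIs from Tff1, 319 (56.4%) at least 75% from Tff2, and 163 neither. The Tff1-leading cells had a median of 12337 UMIs and the Tff2-leading cells 16833. The Tff1-leading cells also carried more trefoil UMIs, with a median of 43.5 against 18, and the part of this load in the differences between the 2 groups was not tested. Of 4645 genes compared between them, 13 (0.28%) were more than 2-fold higher in the Tff1-leading cells and 42 (0.904%) more than 2-fold higher in the Tff2-leading cells. The split was by the trefoil genes themselves, so their own difference is not a result.

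Among the 8 named genes higher in Tff1-leading cells, Stc1 again had the largest ratio. It stood at 85.0 CPM in Tff1-leading and 25.4 CPM in Tff2-leading cells. Foxp1, a forkhead factor, stood at 72.2 CPM against 24.2 CPM, Ets1, an ETS factor, at 160 CPM against 59.7 CPM, and Nfkbiz, a nuclear regulator of NF-κB, at 110 CPM against 42.4 CPM. Cxcl3, a neutrophil chemokine, stood at 144 CPM against 60.2 CPM, Slco2a1, a prostaglandin transporter, at 66.6 CPM against 29.3 CPM and Tmem252 at 51.3 CPM against 21.2 CPM. Apoe stood at 335 CPM against 130 CPM. Several of these rested on few cells: 5 of the 84 Tff1-leading cells held 54.9% of the group's UMIs of Apoe, 50% of Tmem252, 42.8% of Cxcl3 and 40.9% of Nfkbiz. Of 8 epithelial transcription factors compared, none was past 2-fold. Hnf4a was under the count limit for this comparison, and was at 69.0 CPM in Tff1-leading, 9.82 CPM in Tff2-leading and 1.80 CPM in trefoil-zero cells, with 86 UMIs in the 84 Tff1-leading cells. Hbb-bs, a haemoglobin, had a log2 ratio of 4.91 between the leading groups, but 225 of its 230 UMIs in Tff1-leading cells lay in 1 cell.

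Of the 8 named genes higher in Tff2-leading cells, Mgst1 had the largest ratio. Mgst1, a membrane glutathione transferase, stood at 32.3 CPM in Tff2-leading and 3.21 CPM in Tff1-leading cells, the latter from 4 UMIs in 4 cells. The log2 ratio of Tff1-leading over Tff2-leading cells was -3.16 [-5.22 to -1.95]. Wnt6, a Wnt ligand, stood at 67.0 CPM against 11.2 CPM, C3, the central complement component, at 34.4 CPM against 5.62 CPM, and Bgn, the proteoglycan biglycan, at 74.3 CPM against 16.8 CPM. Enpp2, autotaxin, which makes lysophosphatidic acid, was found in 66.1% of Tff2-leading and 16.7% of Tff1-leading cells, at 120 CPM against 28.1 CPM. Tnfrsf11b, the decoy receptor osteoprotegerin, stood at 73.2 CPM against 21.7 CPM, Aspscr1 at 239 CPM against 68.2 CPM and Krt90 at 43.5 CPM against 11.2 CPM. In trefoil-zero cells Mgst1 stood at 54.0 CPM, Wnt6 at 80.9 CPM, Bgn at 117 CPM, Tnfrsf11b at 102 CPM and Aspscr1 at 252 CPM. For these the Tff2-leading cells were the nearer to trefoil-zero cells. C3 at 25.6 CPM, Krt90 at 31.2 CPM and Enpp2 at 73.6 CPM lay between the leading groups. The genes named as higher in Tff1-leading cells were also nearer to trefoil-zero cells in the Tff2-leading cells, such as Foxp1, at 25.6 CPM in trefoil-zero cells. Picked after their values were seen, Cd74 stood at 561 CPM against 230 CPM, H2-Aa at 38.8 CPM against 12.8 CPM and Sema3c at 120 CPM against 57.0 CPM. Of 12 antigen presentation genes compared, 3 were past 2-fold lower in Tff1-leading cells, with a median of -0.44.

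**Figure D5:**
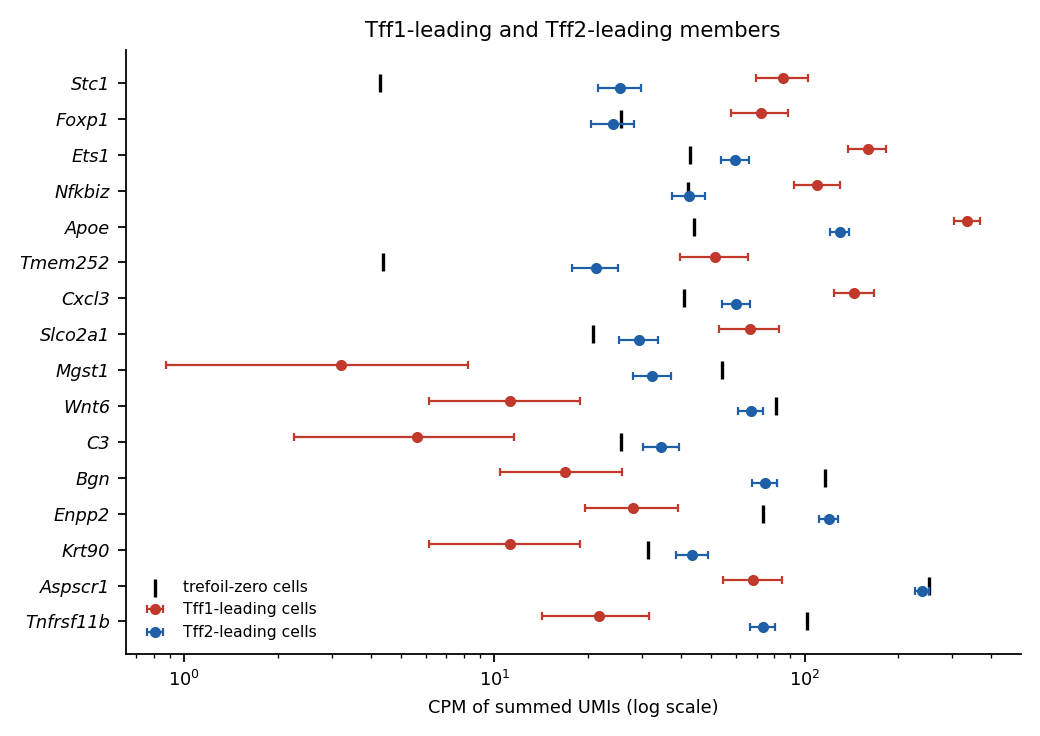
CPM on a log axis of the 16 genes named for the split of members by leading trefoil gene, in 84 Tff1-leading cells (red) and 319 Tff2-leading cells (blue), with exact 95% Poisson intervals and the level in trefoil-zero cells as a black tick. Stc1 lies at 85.0 CPM in red and 25.4 CPM in blue, and Mgst1 at 3.21 CPM and 32.3 CPM.

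The same gate in the lymph node library gave a different make-up. Of 335 gated cells, 286 (85.4% [81.1 to 89.0]) had at least 3 trefoil UMIs, 29 had 1 or 2 and 20 had none. Depth differed, with medians of 35369.5 UMIs in trefoil-positive and 15791 in trefoil-zero cells, and after thinning to 5000 UMIs 66.4% of 329 node cells and 16.7% of 3952 tumour cells had at least 3 trefoil UMIs. The node share stayed the higher at equal depth. Tff2 stood at 1540 CPM and Tff1 at 78.9 CPM, so Tff1 made up 4.87% of trefoil UMIs, against 42.5% in the tumour. In the node's 4917 immune cells 5.80% had any trefoil UMI and 0.0407% at least 3. Of the 20 trefoil-zero cells, 2 held salivary gland transcripts and 18.9% of that group's UMIs.

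Against these 20 cells, 9 of 15 named higher genes and 6 of 9 named lower genes had the direction of the tumour. Of all 9118 genes, 67.9% lay above 0 in this comparison and 32.1% below. Without the 2 salivary cells, an alternative added after seeing the data, 7 of 15 higher and 6 of 9 lower genes did, beside 50.9% of all genes above 0 and 49.1% below. Ppbp stood at 167 CPM in trefoil-positive and 38.2 CPM in trefoil-zero cells of the node, and Sprr1a at 1334 CPM and 644 CPM. Gbp2 stood at 2.24 CPM and 35.8 CPM. Areg was at 8.25 CPM and 35.8 CPM, a log2 ratio of -2.16 [-2.91 to -1.22], the direction opposite to the tumour. Stc1 was at 5.74 CPM and 7.16 CPM, and its log2 ratio of -0.53 [-1.93 to 2.00] gave no clear direction. Depth-balanced, the log2 ratios of Areg and Stc1 were 0.40 and 2.04, resting on 15 and 3 UMIs in the 20 trefoil-zero cells. The reweighting scaled up those cells while the added 0.5 count stayed the same, which raises the ratio of genes with no UMI there. Cdon, with no UMI there, went from 3.08 to 7.04. The part of depth in these changes was not tested. Depth-balanced, 13 of 15 higher and 4 of 9 lower genes had the tumour's direction, beside 80.4% of all genes above 0 and 19.6% below, under the same limit. Hnf4a was at 1.17 CPM [0.621 to 1.99] in trefoil-positive cells of the node, against 15.1 CPM in the members of the tumour.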

How the data were processed

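The authors deposited 1 matrix of raw UMI counts per library, as integers that had not been scaled. Per the file headers the counts came from Cell Ranger 5.0.0, while the submitters' processing notes name version 2.1.1 and GRCm38. The study methods describe cell limits and DoubletFinder, but cells beyond those limits were still present, and doublets were kept here and removed only in an alternative (Scrublet in scanpy 1.11.5, expected rate 6%, marking 6.34% of the 9989 cells that passed the first 2 limits). No file assigns cells to mice or types.

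Counts were summed over the cells of a group and scaled to CPM, and log2 ratios added 0.5 count to each sum. The members held 19522938 UMIs and trefoil-zero cells 30589492. The depth-balanced ratio reweighted trefoil-zero cells over 10 depth bins. Thinning gave expected shares over all random draws. The members, gene lists and rules were chosen with earlier results of these data known. Genes were named by rule if among the 15 (leading comparison 8) with the largest ratio each way under the limits given, as the most abundant genes of a list (2 to 4 past 2-fold, otherwise 2), or as genes the study is about. Other genes, such as list members given to fill out a count, were singled out after their values were seen. Some list genes are counted in their list but not reported here by name. Of the list symbols, 4 had no match (Ca12, Ctgf, Cyr61 and Muc6), and Ero1l was matched by identifier. Coding sequences came from GENCODE, whose annotation matched 22565 of 22620 genes, and promoters from RefSeq. Software was pandas 2.3.3, SciPy 1.17.1, NumPy 2.4.6 and Matplotlib 3.10.9 under Python 3.11.15. The ratios were tested on simulated Poisson counts with planted folds and no spread between cells or mice, which checks the calculation only. With 1 library per group, samples could not be left out in turn.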

Additional observations from a re-analysis of the deposited data

How the results depend on the processing

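No paired analysis was possible because no label assigns the cells of the pooled libraries to mice. In each of 11 settings, 22 to 24 of the 24 named genes stayed past 2-fold in the same direction and none reversed. The genes were chosen in the main comparison, which shares cells with the other settings. They also had to pass 1.5-fold when depth-balanced, so that setting could not reverse them. Genes more than 2-fold higher (112) numbered 235 with a minimum of 50 UMIs a gene and 24 with 1000, and genes lower (31) numbered 107 and 11. Lower genes numbered 110 when members were chosen after thinning to 5000 UMIs and 79 with at least 10 trefoil UMIs, of which 23 and 28 were among the 31. Under the same 2 settings the interferon median was -0.77 and -0.74, with 10 and 9 genes lower, and that of antigen presentation -0.57 and -0.52, with 3 and 2 lower. The cholesterol median was 0.96 between 10000 and 20000 UMIs a cell and 0.85 with at least 10 trefoil UMIs, with 8 genes higher in both (4 in the main comparison). The share of members was 12.4% with at least 10 trefoil UMIs, 27.6% with at least 20 keratin UMIs, 22.7% with no cell cycle UMI and 16.9% in 1 draw after thinning. Between 10000 and 20000 UMIs, 6 genes were higher and 12 lower in Tff1-leading cells (45 against 167 cells). Medians beyond their counting spread that reversed were those of stratified keratins (0.013 with no cell cycle UMI), early and heat shock genes (0.16 between 10000 and 20000 UMIs, 0.064 after thinning, 0.018 with at least 10 trefoil UMIs and 0.037 depth-balanced), myeloid markers (0.69 with 1000 UMIs a gene) and haemoglobins (0.22 between 10000 and 20000 UMIs, 0.013 with at least 10 trefoil UMIs and 0.18 depth-balanced). A further 7 lists, whose medians in the main comparison lay within that spread of 0, also changed sign in some setting: mucosal (-0.55 to 0.12), DNA replication (-0.30 to 0.036), endothelial (-0.022 to 0.28), unfolded protein response (-0.0026 to 0.19), lipoxygenase and semaphorin (-0.15 to 0.029), junction (-0.0057 to 0.096) and antioxidant (-0.091 to 0.075). The limits of 50 and 1000 UMIs changed how many genes were compared; for the rest the cause was not tested. In the lymph node, 7 to 13 of 15 named higher and 4 to 6 of 9 lower genes had the tumour's direction over the settings run. Genes of a few CPM rest on few UMIs, and cells of 1 library are no replicates.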
